A study of Mus musculus with 8 samples.

Results

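The *Med1* cKO was examined through 8 claudin genes that belong to the enamel organ or to skin: *Cldn1*, *Cldn3*, *Cldn4*, *Cldn7*, *Cldn8*, *Cldn10*, *Cldn16* and *Cldn19*. They were chosen by name from the 23358 genes of the deposited RNA-seq table, and all 8 were found in it. The mice were 4 weeks old and on a C57BL/6 background. *Med1* cKO mice carried floxed *Med1* alleles and Krt14-Cre, a Cre recombinase driven by the keratin 14 promoter of basal epithelium, so non-epithelial cells of the tissue kept the gene. Ctrl mice were Cre-negative littermates. RNA came from the cervical loop (CL), the epithelial niche at the growing end of the mouse incisor, divided into its head (CLH, where the stem cells lie) and its tail (CLT, which holds their progeny), with tissue of several animals pooled. Each of the 4 groups (Ctrl CLH, cKO CLH, Ctrl CLT and cKO CLT) had 2 libraries.

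Claudins are membrane proteins with 4 spans that line up in strands between neighbouring epithelial cells and form the tight junction. Some of them seal the space between cells, as *Cldn1*, *Cldn3*, *Cldn4* and *Cldn8* do, and others form paracellular pores, as *Cldn10* does for cations or anions according to its isoform. In skin, *Cldn1* is needed for the water barrier of the granular layer. In the enamel organ, ameloblasts are closed by junctional complexes while they move ions into the enamel, and inherited loss of *CLDN10*, *CLDN16* or *CLDN19* in people is known to go with enamel defects.

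Values are RPKM, read counts scaled to gene length and library size. They are not adjusted for genes that take many reads. The enamel gene *Ambn* took 1562603 of 24951483 reads on genes in Ctrl CLT 1 and 179 in cKO CLT 1. Comparison between genes also rests on the gene length used, which for *Cldn10* was 1446 bases, against 2591 over all its annotated exons. Library totals ranged from 26591613 to 34420180 reads. A gene was tested when it reached 1 RPKM in at least 2 of the 8 libraries, which 14148 genes and 6 of the 8 claudins did. Log2 changes are on the log2(RPKM + 1) scale, and a gene is called at an adjusted p under 0.05 (limma with Benjamini-Hochberg adjustment over the 14148 genes). Folds between group means are instead ratios of mean RPKM without the added 1. The 2 measures can differ widely, where values are low or where the libraries of a group differ. The labels do not say which animals went into which library, so p-values measure only the spread between these libraries.

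The groups were checked against the targeted gene and against markers of their tissue. *Med1* itself had 7.71 and 9.12 RPKM (Ctrl) and 7.10 and 7.03 (cKO) in the head libraries, and 4.83 and 8.71 (Ctrl) and 9.15 and 8.96 (cKO) in those of the tail. It was not lower in the CLT libraries labelled cKO, and since a gene-level value also counts the exons that remain and the cells without Cre, it does not check the deletion. The labels give the cells as dental epithelial. Keratin 14 (*Krt14*) was at 178 to 649 RPKM in all 8 libraries, and 6 mesenchyme markers summed to 1551 to 2272 RPKM, so every library also held RNA of mesenchyme. The libraries labelled cKO CLT nearly lacked the defining markers of ameloblasts and odontoblasts. *Ambn*, which encodes the enamel matrix protein ameloblastin, fell from 28838 and 10887 RPKM in the Ctrl libraries to 3.45 and 1.78 in the cKO libraries of the tail, and *Dspp*, the dentin matrix gene, was at 543 and 644 RPKM against 0.145 and 0.174. The 2 Ctrl CLT libraries also stood apart from each other: 34.6% of tested genes differed by more than 1.5-fold between them, against 0.8% to 1.1% within the other groups. In bulk tissue, fewer cells of a type and less RNA per cell cannot be told apart. Genotype and tissue content cannot be told apart in the cKO CLT libraries either.

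In the genome of the files (mm10), the claudins studied include 2 pairs of neighbours. *Cldn4* (chr5:134945124-134946934, minus strand) and *Cldn3* (chr5:134986214-134987476, plus strand) lie 39279 bases apart with no other gene of the table between them, and *Cldn1* (chr16:26356646-26371839, minus strand) and *Cldn16* (chr16:26463135-26482764, plus strand) lie 91295 bases apart. Both pairs point away from each other. *Cldn4* and *Cldn3* had alike patterns over the libraries, and *Cldn1* was high where *Cldn16* was at 0 in every library and so had no pattern to compare. The sequence just before each of these 4 starts is shown, from RefSeq in GRCm38.p6, the same build. For *Cldn4* this is chr5:134946935-134947184, for *Cldn3* chr5:134985964-134986213, for *Cldn1* chr16:26371842-26372089 and for *Cldn16* chr16:26462885-26463134. All are written 5′ to 3′ on the gene's strand, and capitals mark matches on either strand to TGANTCA (the AP-1 motif), CACCTG (an E-box bound by Snail factors) or AACNNGTT (a grainyhead-like motif).
*Cldn4*: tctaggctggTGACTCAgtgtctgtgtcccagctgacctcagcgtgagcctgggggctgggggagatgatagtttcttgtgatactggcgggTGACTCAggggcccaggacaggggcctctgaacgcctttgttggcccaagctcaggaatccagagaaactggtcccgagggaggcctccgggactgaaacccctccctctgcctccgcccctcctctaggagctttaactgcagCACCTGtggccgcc
*Cldn3*: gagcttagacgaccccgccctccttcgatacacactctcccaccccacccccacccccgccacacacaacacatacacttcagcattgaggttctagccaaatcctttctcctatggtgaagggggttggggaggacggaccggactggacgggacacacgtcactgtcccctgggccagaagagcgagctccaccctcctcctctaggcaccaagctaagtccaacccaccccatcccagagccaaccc
*Cldn1*: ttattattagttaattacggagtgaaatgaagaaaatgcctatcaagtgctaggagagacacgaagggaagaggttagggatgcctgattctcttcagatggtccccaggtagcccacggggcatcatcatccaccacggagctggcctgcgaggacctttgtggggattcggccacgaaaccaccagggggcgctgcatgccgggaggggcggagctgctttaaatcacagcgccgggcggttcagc
*Cldn16*: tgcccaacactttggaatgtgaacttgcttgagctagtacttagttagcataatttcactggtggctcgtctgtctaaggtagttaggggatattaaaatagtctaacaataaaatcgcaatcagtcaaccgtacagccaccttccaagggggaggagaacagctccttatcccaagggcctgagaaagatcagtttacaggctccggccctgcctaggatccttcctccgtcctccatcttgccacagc
The *Cldn4* window held 2 AP-1 matches and 1 CACCTG match, and the other 3 windows held none of the 3 motifs. Of 32851 windows of 250 bases before RefSeq starts, 6.7% held an AP-1 match, 0.34% held 2 or more, 17.2% held CACCTG or its reverse complement, and 3.6% held the grainyhead-like motif. Entries were found for 7 of the 8 claudins, all but *Cldn8*. The 2 genes of the chromosome 5 pair thus had alike patterns over the libraries at unlike levels, with means in cKO CLT of 153.8 RPKM for *Cldn4* and 7.94 for *Cldn3*. Their windows held unlike matches, though most of the 32851 windows, like that of *Cldn3*, held neither an AP-1 nor a CACCTG match.

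*Cldn1* was abundant in every library and was higher in the tail than in the head. The Ctrl CLH libraries had 24.0 and 24.8 RPKM, those of cKO CLH had 31.1 and 24.5, those of Ctrl CLT had 133.5 and 99.1, and those of cKO CLT had 137.0 and 123.7. All 4 CLT libraries lay above all 4 CLH libraries, and the Ctrl and cKO libraries overlapped within each region. The means in CLT were 4.77-fold those in CLH in Ctrl and 4.69-fold in cKO. The difference was called in cKO (log2 change 2.20, SE 0.12, adjusted p = 6.72e-07) and not in Ctrl (2.19, SE 0.19, adjusted p = 0.217), where the spread of the Ctrl CLT pair enters the test.

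*Cldn4*, a sealing claudin and a receptor for a clostridial enterotoxin, had the highest mean in cKO CLT of the 24 claudins ranked, which leave out the table's *Cldn25* entry because it has the position of another gene. In the head it was at 1.84 and 1.81 RPKM in the Ctrl libraries and at 1.82 and 2.35 in the cKO libraries. In CLT it was at 52.8 and 0.955 RPKM in the Ctrl libraries and at 147.4 and 160.1 in the cKO libraries. The cKO CLT libraries lay above all others, while Ctrl CLT 2 lay below the head and Ctrl CLT 1 far above it. The mean was 5.73-fold higher in cKO CLT than in Ctrl CLT, and the log2 change of 3.92 had an SE of 1.69 (adjusted p = 0.18). Over the other settings of the fit that kept every library, which are meant by other settings throughout, the adjusted p ranged from 0.0512 to 0.277. It was 2.77e-06 and 0.000448 with 1 or the other Ctrl CLT library left out, and 0.467 and 0.494 with a cKO CLT library left out. Against cKO CLH the level in cKO CLT was 73.8-fold higher (log2 change 5.65, SE 0.11, adjusted p = 1.56e-09).

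*Cldn3*, the neighbour of *Cldn4* and likewise a sealing claudin, was near 0 in most libraries. In the head it was at 0.0460 and 0.177 RPKM (Ctrl) and at 0.0469 and 0.0536 (cKO), from 2 to 6 reads in each library. In CLT it was at 2.38 RPKM (88 reads) and 0 (no read, which allows up to 0.089 RPKM, the level of 3 reads, for counting error only) in Ctrl, and at 6.92 and 8.97 RPKM (245 and 309 reads) in cKO. *Cldn3* therefore passed the filter on low values only through CLT libraries. The log2 change in CLT was 2.27 (SE 0.65, adjusted p = 0.102), and the adjusted p ranged from 0.0174 to 0.182 over the other settings. Levels of *Cldn3* and *Cldn4* had a Pearson r of 0.986 over the 8 libraries on the log2(RPKM + 1) scale, a description that rests on the CLT libraries in which both were high.

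*Cldn8*, a claudin that limits the passage of cations, was low in the head and higher in cKO CLT. The head libraries had 2.35 and 2.37 RPKM (Ctrl) and 2.21 and 1.98 (cKO), and the tail libraries had 3.44 and 1.20 (Ctrl) and 9.12 and 8.61 (cKO). The Ctrl CLT libraries lay on either side of the 4 CLH libraries, and the cKO CLT libraries lay above the rest. The mean was 3.83-fold higher in cKO CLT than in Ctrl CLT (log2 change 1.66, SE 0.39, adjusted p = 0.0839, range over the other settings 0.00962 to 0.14).

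*Cldn7*, which is found along the sides of epithelial cells, was not tested because it stayed below 1 RPKM in all 8 libraries. The head libraries had 0.520 and 0.333 RPKM (Ctrl) and 0.469 and 0.419 (cKO), and the tail libraries had 0.306 and 0.104 (Ctrl) and 0.663 and 0.530 (cKO). These values rest on 4 to 27 reads a library, and the CLT groups did not overlap.

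*Cldn10*, which forms paracellular ion pores, had the highest mean of the same 24 claudins in both CLH groups. It was at 33.9 and 34.6 RPKM (Ctrl) and at 30.0 and 33.3 (cKO) there. In CLT it was at 47.6 and 33.1 RPKM in Ctrl and at 11.9 and 9.28 in cKO. The 2 cKO CLT libraries lay below the other 6, which is the opposite order to *Cldn3*, *Cldn4*, *Cldn8* and *Cldn19*. Its mean in Ctrl CLT was 3.81-fold that in cKO CLT (log2 change -1.82, SE 0.25, adjusted p = 0.0602, range over the other settings 0.0021 to 0.0938). *Cldn10* is transcribed from 2 starts in RefSeq, at the beginning of chr14:118787871-118874525 and inside it, and the table holds 1 value for both, so its isoforms cannot be told apart here.

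*Cldn16* and *Cldn19*, which act together in the kidney in the paracellular uptake of magnesium and calcium, differed in detection. *Cldn16* was at 0 in all 8 libraries, and 3 reads would have given 0.074 to 0.096 RPKM. Expression above that level was not detectable in any group at this depth. *Cldn19*, which is also made by Schwann cells, had 0.439 and 0.650 RPKM (Ctrl) and 0.462 and 0.559 (cKO) in the head libraries, and 0.710 and 0.400 (Ctrl) and 1.88 and 1.77 (cKO) in those of the tail. It exceeded 1 RPKM in the cKO CLT libraries alone, and passed the filter through them. The mean of *Cldn19* in cKO CLT was 3.28-fold that in Ctrl CLT (log2 change 0.87, SE 0.20, adjusted p = 0.0829, range over the other settings 0.00925 to 0.142). The summed RPKM of 8 Schwann cell markers was also higher in cKO CLT, at 196 and 189 against 119 and 110 in Ctrl CLT. In the head libraries this sum was 139 to 156, above Ctrl CLT, while *Cldn19* overlapped between the head and Ctrl CLT. Of the 8 markers 7 had a positive log2 change in CLT, and *Pmp22*, at 71.5 and 75.9 RPKM in the Ctrl and 63.7 and 56.3 in the cKO libraries of the tail, had a negative one. The part of these cells in the *Cldn19* value was not tested. A short antisense gene, *Gm12927*, overlaps the first bases of *Cldn19*, and the strand setting of the counting is not given in the sources used here.

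**Figure D1:**
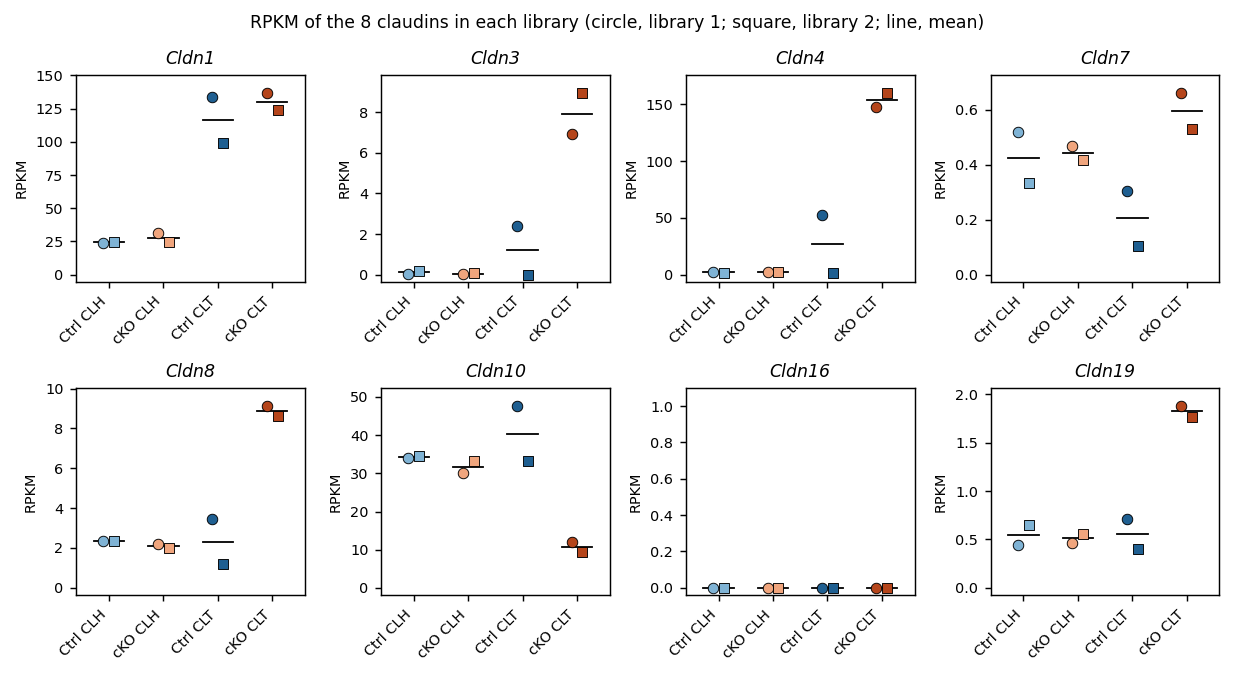
RPKM (vertical axes, linear) of each of the 8 claudins in the 4 groups. Each point is a library and each line the mean of 2 libraries. *Cldn3*, *Cldn4*, *Cldn8* and *Cldn19* are highest in cKO CLT, *Cldn10* is lowest there, *Cldn1* is high in both CLT groups and *Cldn16* is at 0 throughout.

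The share of each claudin in the summed RPKM of the 8 genes is given as a description, with no test. The sum was 63.2 to 66.0 in the 4 head libraries, 241 and 135 in the Ctrl tail and 315 and 313 in the cKO tail. *Cldn10* took 45.39% to 53.73% of that sum in the head, 19.78% and 24.55% in the Ctrl tail and 3.78% and 2.96% in the cKO tail. *Cldn4* took 2.75% to 3.73% in the head, 21.91% and 0.71% in the Ctrl tail and 46.81% and 51.16% in the cKO tail. *Cldn1* held between 38.03% and 73.48% of the sum in every library, with its highest share in Ctrl CLT 2. By mean level, the order in cKO CLT was *Cldn4*, *Cldn1*, *Cldn10*, *Cldn8*, *Cldn3*, *Cldn19*, *Cldn7* and *Cldn16*. Of these neighbours, *Cldn8* and *Cldn3* overlapped between libraries, and the others did not. In the head the order was *Cldn10*, *Cldn1*, *Cldn8*, *Cldn4*, *Cldn19*, *Cldn7*, *Cldn3* and *Cldn16* in both genotypes. *Cldn10* and *Cldn1*, and *Cldn8* and *Cldn4*, overlapped there in cKO, and *Cldn19* and *Cldn7* overlapped in both genotypes. In Ctrl CLT the order was *Cldn1*, *Cldn10*, *Cldn4*, *Cldn8*, *Cldn3*, *Cldn19*, *Cldn7* and *Cldn16*, and the neighbouring pairs from *Cldn10* and *Cldn4* down to *Cldn3* and *Cldn19* each overlapped. *Cldn1* and *Cldn10*, *Cldn19* and *Cldn7*, and *Cldn7* and *Cldn16* did not overlap there.

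None of the 6 claudins tested was called in cKO CLT against Ctrl CLT, where 1.75% of all tested genes were called. At an unadjusted p under 0.05, *Cldn3*, *Cldn8* and *Cldn19* were higher and *Cldn10* was lower, against a background of 19.8% of tested genes higher and 16.4% lower. The 2 groups did not overlap for *Cldn3*, *Cldn4*, *Cldn8* and *Cldn19* (higher) and *Cldn10* (lower), while 37.2% of tested genes did not overlap in the higher direction and 35.1% in the lower. The median log2 change of the 6 claudins was 1.26, beside -0.009 over all tested genes. *Cldn19* passed the filter on low values through the cKO CLT libraries alone, and *Cldn3* through CLT libraries alone. Their higher values in cKO CLT are therefore no support for these counts or for the median. An exact permutation test of 2 libraries against 2 cannot give a 2-sided p below 0.333.

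The calls in CLT turned on the pair of Ctrl libraries. Without Ctrl CLT 1 all 6 claudins were called, and 69.5% of all tested genes with them, while without Ctrl CLT 2 there were 5 called, all but *Cldn1*, among 52.1% of all tested genes. In both fits the remaining Ctrl library was assumed to vary like the cKO CLT pair. In these 2 fits, in that order, the log2 change of *Cldn4* was 6.31 and 1.53, that of *Cldn3* was 3.15 and 1.39, and that of *Cldn8* was 2.17 and 1.15. *Cldn10* moved less, with -1.57 and -2.08. *Cldn1* moved from 0.391 to -0.036 and so changed sign.

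In the head, none of the 6 claudins was called between cKO CLH and Ctrl CLH, where 0% of tested genes were called and 7.26% had an unadjusted p under 0.05 (limma). None of the 6 had such a p. Log2 changes lay between -0.12 (*Cldn8*, SE 0.08) and 0.17 (*Cldn1*, SE 0.12). *Cldn8* and *Cldn10* were the 2 claudins whose groups did not overlap, both lower in cKO, a pattern found in 18.8% of tested genes.

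Between regions, 0 of the 6 claudins were called in Ctrl, where 0.00707% of tested genes were called, and *Cldn1* alone had an unadjusted p under 0.05 (limma), which 13.1% of tested genes had. In cKO all 6 were called, 5 higher in CLT and *Cldn10* lower, against a background of 28.9% of tested genes called higher and 45.1% lower. *Cldn3* and *Cldn19* passed the filter on low values only through CLT libraries, so their calls are no support for that count. *Cldn10* was at 31.6 ± 2.35 RPKM in cKO CLH and 10.6 ± 1.85 in cKO CLT (SD, n = 2), a log2 change of -1.50 (SE 0.12, adjusted p = 8.23e-06). *Cldn8* gave 1.67 (SE 0.10, adjusted p = 1.33e-06) and *Cldn19* 0.90 (SE 0.10, adjusted p = 6.87e-05) in the same comparison. This comparison and the one with Ctrl CLT share the cKO CLT libraries.

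**Figure D2:**
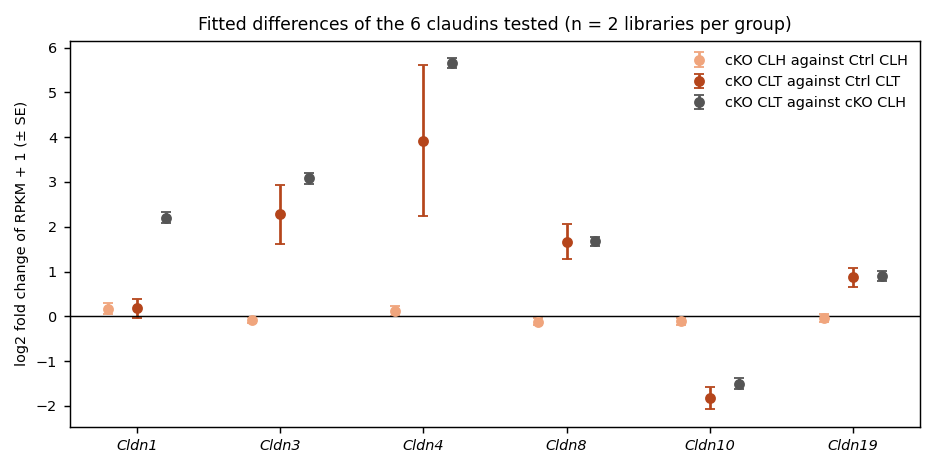
Log2 fold change of RPKM + 1 with its SE (vertical axis) for the 6 claudins tested, in cKO CLH against Ctrl CLH, cKO CLT against Ctrl CLT and cKO CLT against cKO CLH, with 2 libraries in each group. The CLH values lie between -0.12 and 0.17, and the widest error is that of *Cldn4* in CLT (SE 1.69).

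Whether cKO against Ctrl was the same in both regions was tested over all 8 libraries. A difference between regions was called for 3 of the 6 claudins, where 17.6% of tested genes were called. The fit pooled the spread of all groups, though the Ctrl CLT pair varied far more than the others. Its p-values therefore depend on that pooling. *Cldn8* gave 1.78 (SE 0.44, adjusted p = 0.0424), *Cldn19* 0.90 (SE 0.23, adjusted p = 0.0444) and *Cldn10* -1.71 (SE 0.27, adjusted p = 0.0155). *Cldn3* (2.35, adjusted p = 0.0726), *Cldn4* (3.79, adjusted p = 0.197) and *Cldn1* (0.01, adjusted p = 0.986) were not called. Of the 3 called, *Cldn19* had passed the filter on low values through the cKO CLT libraries alone, the group in which it was high, so its call is no support for a count over the claudins. Leaving out any library outside Ctrl CLT ended all 3 calls, and the calls also changed without a Ctrl CLT library. The share of all tested genes called in these fits was not taken, so no count of claudins is read from them.

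The Ctrl CLT libraries were set beside marker lists of cell types that could be in the tissue. Ctrl CLT 1 held 34.3% of the cKO CLT mean of *Cldn4*, 30.0% of that of *Cldn3*, 38.7% of that of *Cldn8* and 39.0% of that of *Cldn19*. Ctrl CLT 2 held 0.621%, 0%, 13.5% and 21.9%. The summed RPKM of 7 markers of the hair shaft and inner root sheath was 2923 in Ctrl CLT 1, 14.9 in Ctrl CLT 2, 8614 and 9433 in the cKO CLT libraries and 9.89 to 14.7 in those of CLH. Ctrl CLT 1 was thus at 32.4% of the cKO CLT mean for hair markers, and likewise at 34.7% for suprabasal epidermis (7 of 8 markers found), 34.7% for skeletal muscle (6 markers) and 32.6% for melanocytes (5 markers). In Ctrl CLT 2 these lists were at 0.165% to 2.6% of the cKO CLT mean, and the hair transcription factor gene *Hoxc13* was at 0.03 RPKM and the melanocyte gene *Mlana* at 0 there. Secretory ameloblast markers (4 genes) went the other way, with summed RPKM of 79097 in Ctrl CLT 1, 30269 in Ctrl CLT 2 and no more than 10.6 in the cKO CLT libraries. Over the 496 genes with a cKO CLT mean of at least 5 RPKM that were below 5% of it in Ctrl CLT 2, Ctrl CLT 1 held a median of 32.5%, with quartiles of 29.5% and 35.3%. These genes were picked by their levels in those libraries, and *Cldn3* and *Cldn4* are among them. The part of these cell types in the claudin values was not tested. Whether Ctrl CLT 1 held tissue or RNA of the kind found in the cKO CLT libraries was not tested either, and each CLT fold change given above includes that library unless it is said to be left out.

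**Figure D3:**
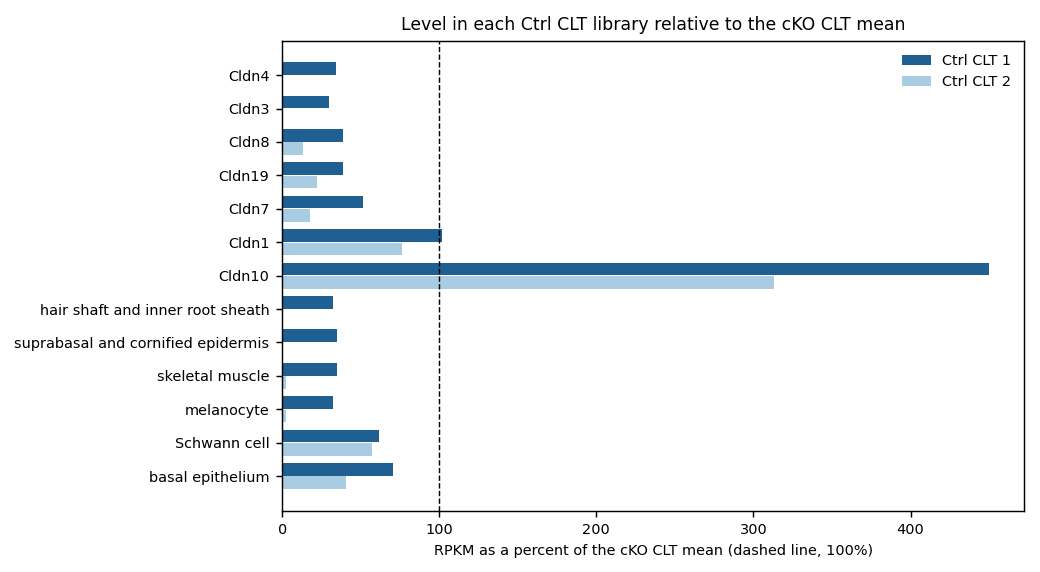
RPKM in Ctrl CLT 1 and Ctrl CLT 2 as a percent of the cKO CLT mean (horizontal axis, linear) for the 7 claudins detected and for the summed RPKM of 6 marker lists. *Cldn4* and *Cldn3* in Ctrl CLT 1 are at 34.3% and 30.0%, beside 32.4% for hair, 34.7% for suprabasal and muscle and 32.6% for melanocyte markers, while *Cldn1* is at 102% and *Cldn10* at 450%.

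The rest of the family was read as a fixed list of 28 further claudin symbols, of which 17 were found and 11 tested. In cKO CLT against Ctrl CLT, 5 of the 11 had a positive and 6 a negative log2 change, with a median of -0.12, beside 7004 positive and 7143 negative over all tested genes. *Cldn20* was the 1 claudin of the 11 called, where 1.75% of all tested genes were called, and it fell in cKO. The head libraries had 15.1 and 12.0 RPKM (Ctrl) and 19.8 and 15.1 (cKO), and the tail libraries had 61.2 and 29.4 (Ctrl) and 1.03 and 1.0 (cKO), with a log2 change of -4.43 (SE 0.39, adjusted p = 0.0397, up to 0.0922 over the other settings). *Cldn20* (chr17:3532554-3533213) lies on the plus strand inside the span of *Tfb1m*, which runs on the minus strand and has 0 exon bases there. Counting with or without strand was not stated, so its reads are uncertain. The highest value was that of *Cldn23*, with 1.57 and 0.0813 RPKM in the Ctrl tail libraries against 5.40 and 4.67 in the cKO ones (log2 change 1.85, SE 0.48, adjusted p = 0.0912). In Ctrl CLT 1 it was at 31.2% of its cKO CLT mean. The entry named *Cldn25* in the table has the position of *Cldnd1*, a gene of another name, and is counted among these 17 and 11 as listed, though it was left out of the 24 claudins ranked by level. Its means of 40.9 RPKM in Ctrl CLH and 40.6 in cKO CLH were above those of *Cldn10*.

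Tight junction partners of claudins (scaffolds such as *Tjp1*, other membrane proteins such as *Ocln*, and the cingulin and JAM families) gave 23 tested genes of 25 listed. None was called in CLT, where 1.75% of all tested genes were. Of the 23, 15 had a positive and 8 a negative log2 change, beside 7004 and 7143 of all tested genes, and the median was 0.33. The highest was *Cgn*, which encodes the junctional plaque protein cingulin, with 2.26 and 0.149 RPKM in the Ctrl tail libraries against 7.31 and 8.14 in the cKO ones (log2 change 2.17, SE 0.56, adjusted p = 0.0912). The lowest was *Jam3*, a junctional adhesion molecule, with 9.79 and 31.5 RPKM in the Ctrl tail libraries against 5.21 and 4.71 in the cKO ones (log2 change -1.65, SE 0.58, adjusted p = 0.132). *Jam3* was lower in Ctrl CLT 1 than in Ctrl CLT 2 and *Cgn* was higher.

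Of 20 regulators known for links to claudins or epithelial junctions, 19 were tested and none was called in CLT, with 14 positive and 5 negative log2 changes and a median of 1.42, read against the same background as the junction partners. The highest was *Grhl1*, a grainyhead-like factor of epidermis, which had 0.724 and 0.643 RPKM (Ctrl) and 0.747 and 0.834 (cKO) in the head and 38.5 and 0.938 (Ctrl) and 137.7 and 134.6 (cKO) in the tail (log2 change 3.97, SE 1.54, adjusted p = 0.153). Like *Cldn4*, it was high in both cKO CLT libraries and in Ctrl CLT 1 and low in Ctrl CLT 2 and the head. The lowest was *Snai1*, a Snail factor known to repress claudin genes, which had 26.1 and 25.3 RPKM (Ctrl) and 29.3 and 34.3 (cKO) in the head and 6.01 and 18.7 (Ctrl) and 1.33 and 1.66 (cKO) in the tail (log2 change -2.24, SE 0.55, adjusted p = 0.088). *Snai1* was lower in every CLT library than in every CLH library. In the head none of the 3 lists had a called gene, with medians of -0.07, 0.01 and 0.09. In cKO CLT against cKO CLH, the calls were 3 higher and 5 lower of 11 other claudins, 16 and 5 of 23 junction partners and 14 and 4 of 19 regulators, beside the 28.9% and 45.1% of all tested genes given above. The 3 other claudins called higher reached 1 RPKM in CLT libraries only, as did *Cgn*, *Tjp3*, *Pard6b*, *Grhl1* and *Ehf*. *Cldn14*, *Cldn15* and *Tjp3* reached it in the cKO CLT libraries alone. Such genes passed the filter on low values through CLT, so they are no support for the higher counts or for the list medians in CLT.

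**Figure D4:**
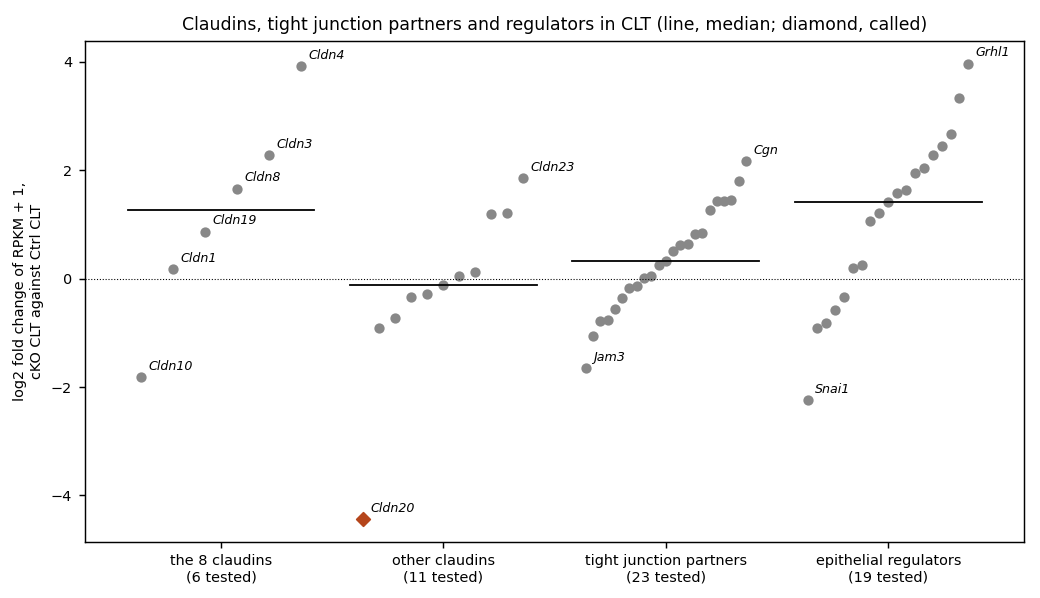
Log2 fold change of RPKM + 1 in cKO CLT against Ctrl CLT (vertical axis) for the claudins studied, the other claudins, the tight junction partners and the epithelial regulators that were tested. Points are genes, lines are medians (1.26, -0.12, 0.33 and 1.42), and the diamond is *Cldn20*, the 1 gene called.

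For each claudin tested, the 3 genes with the most alike patterns over the 8 libraries were listed by Pearson r on the log2(RPKM + 1) scale, as a description. For *Cldn1* these were *Car13*, a carbonic anhydrase gene (r = 0.9995), *Diap1* (0.9956) and *Tnfaip8* (0.9944). For *Cldn4* they were *Vsig8* (0.9994), *Cryba4* (0.9993) and *Gng13* (0.9992), and for *Cldn3* they were *Tfap2e* (0.9992), *Gm10142* (0.9991) and *Wdr65* (0.9991), with names as in the table. *Cldn8* was closest to *Il28ra* (0.9978), *Cldn19* to *Gm10863* (0.998) and *Cldn10* to *Ttll11* (0.9915), *Ebpl* (0.991) and *Wnt7a* (0.9898), the last a Wnt ligand. They were taken from the 14148 tested genes without the claudin itself, genes with repeated names and genes of 200 bases or less. The 8 libraries share 4 groups, so high values are common. Among the claudins themselves, *Cldn3*, *Cldn4*, *Cldn8* and *Cldn19* had r between 0.911 and 0.986 with each other, and *Cldn10* had r between -0.893 and -0.468 with the other 5 tested.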

How the data were processed

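RNA-seq of 8 libraries (Ctrl CLH, cKO CLH, Ctrl CLT and cKO CLT, 2 each) was used, grouped by the sample titles. Per the labels and the study's methods, the authors trimmed reads with Trim Galore 0.4.3.1, aligned them with STAR 2.6.0b-1 to mm10 and counted them with featureCounts 1.6.3. The deposited values are RPKM per gene, and the annotation, the strand setting and the total behind the RPKM are not given in the sources used here. Values times gene length gave whole reads for 100% of 11056 to 12627 values checked per library (tolerance 0.01 read), so library totals could be recovered, and 82.2% to 85.6% of them lay on genes. Intervals and floors cover counting error only.

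limma 3.58.1 (R 4.3.3; lmFit, eBayes with trend) was run on log2(RPKM + 1) within the 4 libraries compared, and over all 8 for the difference between regions. Genes with at least 1 RPKM in at least 2 libraries were tested. The fits were also run on simulated reads with the same spread in every group, which does not cover the wider spread of Ctrl CLT. Alternatives were a pseudocount of 0.1, no filter, median-of-ratios scaling, all 8 libraries in 1 fit, a replicate block, voom on recovered reads and leaving out each library. Named genes are the 8 claudins, *Med1*, genes of the 3 lists that were called or had the highest or lowest value in CLT, the 3 most alike genes of each claudin tested, and markers beside a result. *Gm12927*, *Tfb1m* and *Cldn25* were named after their positions were seen. *Cldn14*, *Cldn15*, *Tjp3*, *Pard6b* and *Ehf* were named for the libraries through which they passed the filter. The members and lists were chosen with earlier results of these data known. Positions of overlapping genes come from GENCODE M21. The separate values of 1 marker gene are not reported here.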

Additional observations from a re-analysis of the deposited data

Results flagged for a closer look

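By the test of the difference between regions, cKO against Ctrl was not the same in CLT and CLH for 3 claudins, where 17.6% of all tested genes were called. That test pooled the spread of all groups, which was widest in Ctrl CLT. Skeletal muscle markers (6 genes) summed to 1776 and 1956 RPKM in cKO CLT, 648 and 48.6 in Ctrl CLT and 27.6 to 31.9 in the head. Genotype and tissue content cannot be told apart in cKO CLT. The difference on the log2 scale was 1.78 for *Cldn8*, 0.9 for *Cldn19* and -1.71 for *Cldn10*. *Cldn8* was 3.83-fold higher in cKO than in Ctrl in CLT and at 0.888 of the Ctrl mean in CLH. *Cldn19* was 3.28-fold higher in CLT and at 0.937 of the Ctrl mean in CLH, and it had passed the filter on low values through the cKO CLT libraries alone. *Cldn10* was at 0.262 of the Ctrl mean in CLT and at 0.923 in CLH. Each group had 2 libraries, and Ctrl CLT 1 stood apart from Ctrl CLT 2 in the levels of *Cldn8* (3.44 and 1.20 RPKM), *Cldn19* (0.710 and 0.400 RPKM) and *Cldn10* (47.6 and 33.1 RPKM). The 3 calls became 1, that of *Cldn10*, with a pseudocount of 0.1, with voom and with the replicate block. All 3 ended when any library outside Ctrl CLT was left out. The share of all tested genes called under those settings was not taken.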

How the results depend on the processing

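With 2 libraries a group, the count of claudins called in CLT, 0 of 6, moved to 4 with all 8 libraries in 1 fit and ranged from 0 to 6 when a library was left out. For all tested genes in CLT, the counts of 11 higher and 237 lower became 0 and 3 without the filter on low values, 3352 and 2831 with all 8 libraries, and 0 and 18 with voom, and ranged from 0 to 4445 and from 11 to 5393 when a library was left out. In Ctrl CLT against Ctrl CLH, claudins called moved from 0 to 1 with all 8 libraries and ranged from 0 to 5 with a library left out (5 without Ctrl CLT 2). All genes there, 1 higher and 0 lower, became 2 higher with a pseudocount of 0.1, 0 without the filter, 0 with voom, and 346 and 491 with all 8 libraries, and ranged from 0 to 2600 and from 0 to 4937. For the difference between regions, claudins called moved from 3 to 1 with a pseudocount of 0.1 and to 1 with voom. The share of all tested genes called under these settings was not taken, so these moves cannot be set against a background. The counts without a Ctrl CLT library rest on the spread of the other pair alone. For other changes the cause was not tested.

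The labels do not say what the replicate numbers mark, and whether they follow litters is not known. Deviations of same-numbered libraries had r of 0.066 between Ctrl CLH and cKO CLH, -0.192 between Ctrl CLT and cKO CLT, 0.195 between the Ctrl regions and 0.307 between the cKO regions. With the replicate block, 3 claudins (*Cldn3*, *Cldn8* and *Cldn10*), 888 genes higher and 856 lower were called in CLT, and 5 genes were called higher in Ctrl CLT against Ctrl CLH. For the difference between regions the block gave 1 claudin called, and the count over all genes was not taken there. A crossed replicate block, chosen after seeing the data, gave 0 claudins, 0 genes higher and 9 lower in CLT.

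Directions that reversed were small or rested on Ctrl CLT. With a library left out, log2 changes in CLT ranged from -0.036 to 0.391 for *Cldn1*. In CLH they ranged from -0.164 to 0.006 for *Cldn3*, -0.005 to 0.247 for *Cldn4* and -0.128 to 0.069 for *Cldn19*. In Ctrl CLT against Ctrl CLH they ranged from -0.15 to 1.61 for *Cldn3*, -0.53 to 4.25 for *Cldn4*, -0.61 to 0.40 for *Cldn8*, -0.048 to 0.464 for *Cldn10* and -0.14 to 0.15 for *Cldn19*, and median-of-ratios scaling gave 0.022 for *Cldn8*. For the difference between regions *Cldn1* ranged from -0.21 to 0.22.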
